A study of Bos taurus with 6 samples.

Results

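The miR-148 and miR-152 family was described in serum extracellular vesicles (EVs), membrane-bound particles that cells release into the blood, of 6 lactating Holstein cows. Its members were taken by name from the deposited count table, as bta-miR-148a, bta-miR-148b and bta-miR-152, which are 3 of the 706 listed miRNAs and 3 of the 359 known bovine ones. The control group (3 cows) received a total mixed ration, and in the tested group (3 cows) whole cotton seed and soybean hull took the place of part of the alfalfa hay. By the formula in the paper, the tested ration also held less corn silage and slightly more steam-flaked corn. Both groups were females in mid lactation, were kept at 20 °C and 40% humidity, and were sampled after 30 days on the diet. Vesicles were bound to an affinity membrane, each cow gave 1 library of small RNA, and the comparison asked whether the diet moved the miRNAs carried in serum.

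A miRNA is a short RNA that guides a silencing complex to messenger RNAs, and bases 2 to 8 of its sequence, the seed, do most of the pairing with the target. miRNAs with the same seed form a family with largely overlapping predicted targets. In other studies miR-148a is among the most abundant miRNAs of cow milk and of liver, and members of this family are known to target DNMT1, a DNA methyltransferase. No milk was sequenced here, so an origin from milk or the mammary gland was not tested.

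The 3 listed sequences are shown because they define the family and because their likeness sets how far the counts of the members can be told apart. They are written 5′ to 3′ as DNA, as deposited, with the seed in capitals.
bta-miR-148a: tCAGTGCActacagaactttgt
bta-miR-148b: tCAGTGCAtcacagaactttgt
bta-miR-152: tCAGTGCAtgacagaacttggg
Each sequence was 22 nt long, and all 3 had the same base at 18 of the 22 positions, the seed included. Counted from the 5′ end, bta-miR-148b differed from bta-miR-148a by C9T and T10C only (90.9% identity). From bta-miR-148a to bta-miR-152 the differences were C9T, T10G, T20G and T22G (81.8% identity), and from bta-miR-148b to bta-miR-152 they were C10G, T20G and T22G. None of the 3 sequences lay inside another listed sequence or held one. The counts of bta-miR-148b are uncertain as far as counting could split reads between near-identical sequences. How mismatched reads were assigned is not given in the sources used here, and their part in the counts was not tested.

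The RefSeq gene table used here belongs to ARS-UCD2.0, a later build than that of the files, so it was used for names and for which genes overlap in that build, and no coordinates are given. All 3 members matched a gene by name. MIR148B overlapped COPZ1, and MIR152 overlapped COPZ2, a pair of genes that encode zeta subunits of the coat of COPI transport vesicles. MIR148A overlapped no protein-coding gene, but a further miRNA gene model, MIR148D, shared its place, and MIR148C likewise overlapped MIR152. Whether reads of these overlapping models entered the counts was not tested.

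The libraries held between 1226928 and 2088249 counts on known miRNAs, with no library left out. Levels are given per 1000000 of these counts, which is the count of a miRNA divided by all counts with bovine names in the same library. Red blood cell miRNAs stood apart in tested cow 1, where bta-miR-451, bta-miR-144 and bta-miR-486 together held 5.96% of the known counts, against 0.862% to 2.84% in the other cows. Nothing in the labels gives a batch. The labels name separate cows but no further replicate, so the spread below is that between cows.

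bta-miR-148a was one of the leading miRNAs of serum EVs in every cow, and its mean level was lower in the tested group by less than the spread of the control cows. Its level was 109932, 86417 and 118612 per 1000000 known counts in control cows 1, 2 and 3, and 89599, 92919 and 91660 in tested cows 1, 2 and 3. Control cow 3 was the highest and control cow 2 the lowest of all 6 cows, so the 3 tested cows fell inside the range of the control group. Control cows had a mean share of 10.5% ± 1.67 (SD, n = 3) of the known counts, and tested cows one of 9.14% ± 0.168 (SD, n = 3). The tested mean was thus 12.9% below the control mean (two-sided exact permutation test, p = 0.4), and with 3 cows in each group no p under 0.1 can be reached. The difference was -6.91% without control cow 3, -20.0% without control cow 2, and -35.8% when levels were taken per clean read, the reads left after filtering by the authors (p = 0.3 by the same exact test). In bulk serum, fewer vesicles of a kind and less of the miRNA in each vesicle cannot be told apart.

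bta-miR-148b, the copy closest in sequence, was present at a small fraction of this level. Control cows 1, 2 and 3 had 331, 388 and 706 counts of it, and tested cows 1, 2 and 3 had 352, 368 and 189. Scaled to the library, this was 215, 193 and 355 per 1000000 known counts for control cows 1, 2 and 3, and 287, 196 and 90.5 for tested cows 1, 2 and 3. Control cow 3 was again the highest, tested cow 3 was the lowest, and the other 4 cows lay between them with both groups mixed. Control cows averaged 254 ± 87.6 (SD, n = 3) and tested cows 191 ± 98.3 (SD, n = 3) per 1000000 known counts, a difference of 24.9% of the control mean (two-sided exact permutation test, p = 0.5). Single cows moved this value, to -5.13% without tested cow 3, -6.44% without control cow 3 and -43.7% without tested cow 1, and per clean read it was -46.6%.

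bta-miR-152, which differs from the other two also at its 3′ end, was the least abundant member by mean level. Control cows 1, 2 and 3 had 320, 215 and 326 counts, and tested cows 1, 2 and 3 had 158, 276 and 342. These were 208, 107 and 164 per 1000000 known counts for control cows 1, 2 and 3, and 129, 147 and 164 for tested cows 1, 2 and 3. The control cows held both the highest and the lowest value, and the groups overlapped over the whole range of the tested cows. The means of 160 ± 50.7 (SD, n = 3) and 146 ± 17.5 (SD, n = 3) differed by 8.26% of the control mean (two-sided exact permutation test, p = 0.7). Without control cow 1 the tested mean was the higher one, by 8.17%. The difference was -21.2% without control cow 2, -13.7% without tested cow 3, -2.72% without tested cow 1 and -30.2% per clean read.

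**Figure D1:**
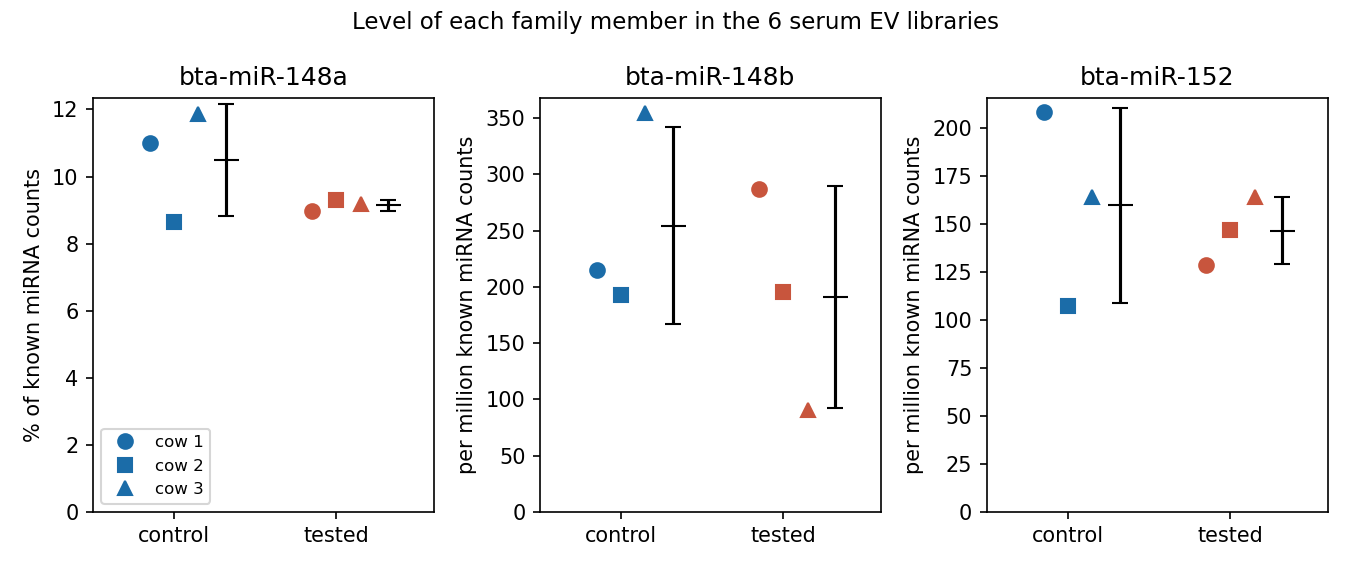
Level of bta-miR-148a (percent of known miRNA counts) and of bta-miR-148b and bta-miR-152 (per 1000000 known miRNA counts) in each library, with the marker shape giving the cow number and the bar giving the group mean and SD of 3 cows. The 2 groups overlap in every panel, and the tested cows lie between 8.96% and 9.29% for bta-miR-148a on this scale, but between 7620 and 14489 per 1000000 clean reads.

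Counting error was small beside the whole range of the cows for each member, but not beside every difference between single cows. For bta-miR-148b the intervals of control cows 1 and 2 and tested cow 2 overlapped. For bta-miR-152 those of control cow 3 and tested cows 1, 2 and 3 overlapped. Those of control cow 2 and tested cow 1 overlapped as well. The 95% Wilson interval of a single library's share reached at most 0.564% of the value to each side for bta-miR-148a, 14.3% for bta-miR-148b and 15.6% for bta-miR-152. Such intervals hold counting error alone, because PCR copies are no independent molecules. The highest library exceeded the lowest 1.37-fold for bta-miR-148a, 3.92-fold for bta-miR-148b and 1.94-fold for bta-miR-152.

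The diet contrast was then fitted over the whole table, by quasi-likelihood in edgeR, for 623 miRNAs whose counts summed to at least 10. The TMM factors used there bring the bulk of miRNAs of each library to one level, and a negative log2 fold change means a lower level in the tested group. bta-miR-148a had 104305 ± 21182 CPM (counts-per-million, SD, n = 3) among control cows and 86874 ± 7111 CPM (SD, n = 3) among tested cows. Its log2 fold change was -0.26 (standard error 0.14, 95% interval -0.57 to 0.04), with an unadjusted p of 0.0838 and an adjusted p of 0.448 from edgeR with Benjamini-Hochberg adjustment. On the linear scale the interval ran from 0.674 to 1.03 times the control level. Without control cow 3 the log2 fold change of bta-miR-148a was -0.10, and with limma, run without a trend of the spread on the level, its standard error was 0.45.

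bta-miR-148b was estimated at a log2 fold change of -0.47 (standard error 0.57, 95% interval -1.70 to 0.76, edgeR adjusted p of 0.838). It was -0.07 without control cow 3 and -0.09 without tested cow 3, the cows with the highest and the lowest level, and -0.87 without tested cow 1. bta-miR-152 was estimated at -0.18 (standard error 0.55, 95% interval -1.37 to 1.00, edgeR adjusted p of 0.979). It was -0.01 without control cow 1, -0.41 without control cow 2, -0.10 without control cow 3 and -0.10 without tested cow 1. Both intervals reached from a fall of more than 2-fold to a rise of more than 1.5-fold. Changes within these intervals were therefore not excluded for either of the low members.

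None of the 3 members had an adjusted p under 0.05 in edgeR, against 0.161% of the 623 miRNAs. None combined an unadjusted p under 0.05 with a change beyond 1 on the log2 scale, against 3.21%. By unadjusted p alone, 4.65% of the 623 miRNAs and none of the 3 members were under 0.05, and DESeq2 and limma gave none of the 3 either. The groups did not overlap in share for 8.01% of the 312 known miRNAs tested and for none of the 3 members. All 3 log2 fold changes were negative, as were those of 158 of the 312 known miRNAs (50.6%). The median was -0.26 over the 3 members, -0.01 over the known miRNAs and 0.07 over all 623.

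**Figure D2:**
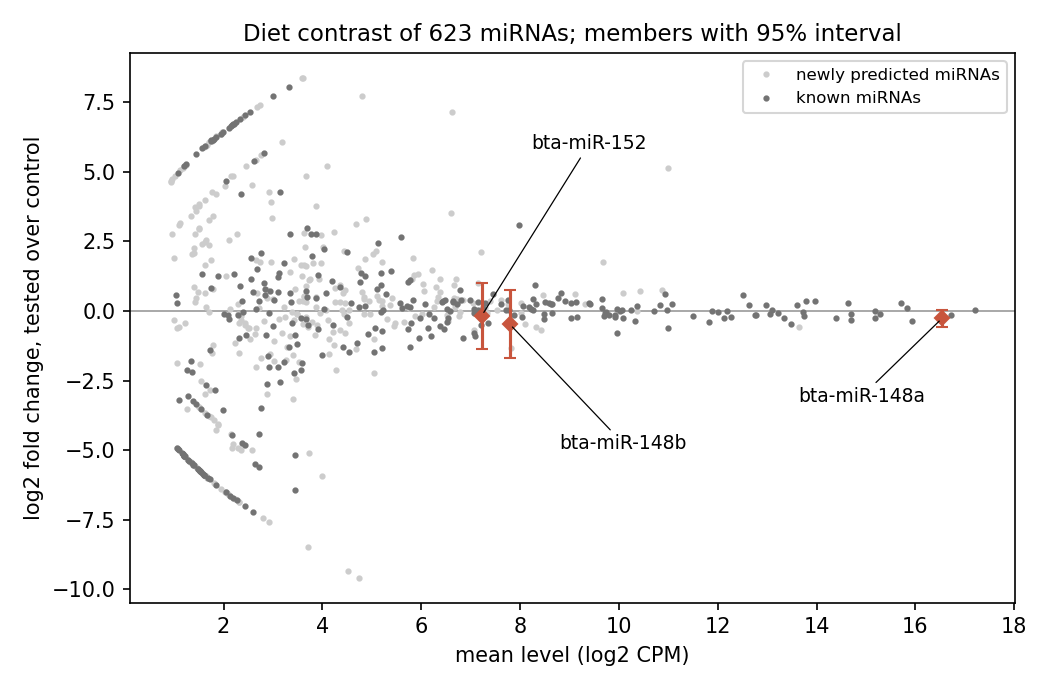
Log2 fold change of tested over control (vertical axis) against mean level in log2 CPM (horizontal axis) for 623 miRNAs in the edgeR fit, with the 3 members in red and their 95% intervals. All 3 intervals cross 0, the interval of bta-miR-148a from -0.57 to 0.04.

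Within the family, bta-miR-148a held nearly all counts in every cow. It made up between 99.5% and 99.7% of the summed counts of the 3 members. bta-miR-148b made up 0.0985% to 0.319% and bta-miR-152 0.123% to 0.189%. The listed lengths are equal, so no scaling to length was needed, although ligation and amplification can favour some sequences over others. Against the counts of both minor members together, bta-miR-148a was between 216-fold and 360-fold higher.

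The minor members did not keep a fixed ratio to bta-miR-148a. For each 10000 counts of bta-miR-148a there were 19.6, 22.4 and 29.9 counts of bta-miR-148b in control cows 1, 2 and 3. The tested cows 1, 2 and 3 had 32.0, 21.1 and 9.87. The highest and the lowest ratio thus both came from the tested group, 3.24-fold apart. For bta-miR-152 the ratio was steadier, with 18.9, 12.4 and 13.8 counts for control cows 1, 2 and 3, and 14.4, 15.8 and 17.9 for tested cows 1, 2 and 3. bta-miR-148b exceeded bta-miR-152 in 5 of the 6 cows, by 1.03-fold to 2.23-fold, and fell below it in tested cow 3, where the ratio was 0.553. The order of these neighbours therefore changed within the tested group, while bta-miR-148a was above both in every cow.

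**Figure D3:**
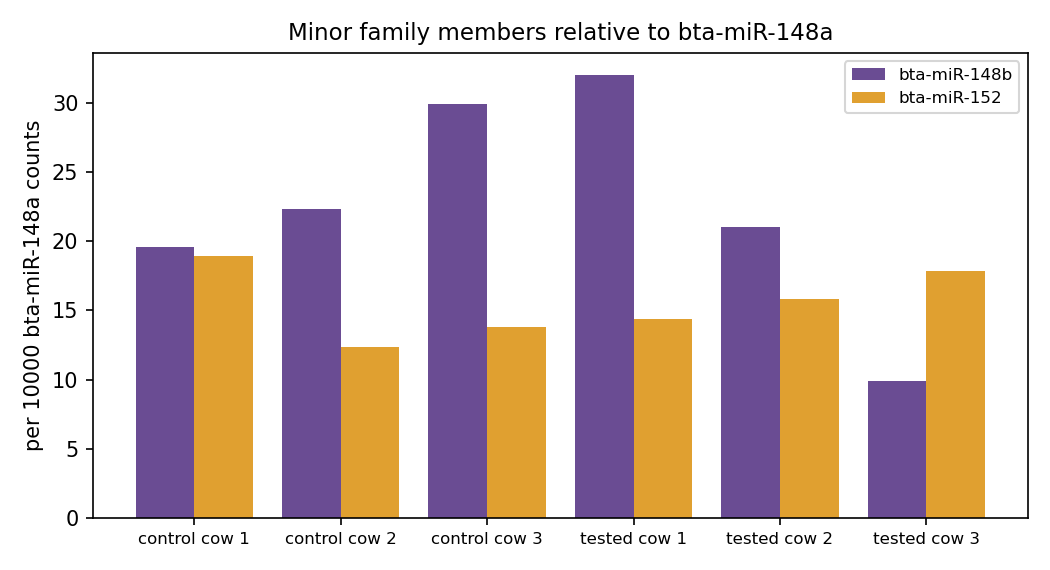
Counts of bta-miR-148b and bta-miR-152 for each 10000 counts of bta-miR-148a (vertical axis) in the 6 libraries. The bars of bta-miR-148b run from 9.87 in tested cow 3 to 32.0 in tested cow 1, and those of bta-miR-152 from 12.4 to 18.9.

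By mean share over the 6 cows, bta-miR-148a ranked 3 among the 359 known miRNAs. It was at rank 2 in control cow 1 and at rank 3 in each other cow. Above it stood bta-let-7b, a member of the large let-7 family of conserved miRNAs, with 11.1% ± 0.999 (SD, n = 6) of the known counts. Their ranges overlapped, and bta-let-7b was the higher one in 5 of the 6 cows. Below it stood bta-let-7a-5p of the same let-7 family with 6.35% ± 1.24 (SD, n = 6), which was lower than bta-miR-148a in all 6 cows.

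bta-miR-148b ranked 86 by mean share, and between 72 and 112 in single cows. Its neighbours in that order were bta-miR-185 at rank 85, with 224 ± 48.2 (SD, n = 6) per 1000000 known counts, and bta-miR-378 at rank 87, with 214 ± 40.0 (SD, n = 6). bta-miR-148b was above bta-miR-185 in 5 of the 6 cows, although its mean was the lower one, and above bta-miR-378 in 3 of the 6. bta-miR-152 ranked 93, and between 86 and 105 in single cows, next to bta-miR-10a at rank 92 with 157 ± 94.3 (SD, n = 6) and bta-miR-29c at rank 94 with 150 ± 38.9 (SD, n = 6). The means of the minor members, 223 and 153 per 1000000 known counts, differed from those of all 4 neighbours by less than the spread between cows.

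Summed by seed, the 359 known miRNAs fell into 283 groups, of which 241 held a single miRNA. The 3 family members were the only known miRNAs with the seed CAGTGCA at bases 2 to 8. Together they held 10.5% ± 1.68 (SD, n = 3) of the known counts among control cows and 9.17% ± 0.163 (SD, n = 3) among tested cows, which put this seed at rank 4 by mean share. Ahead of it were the seed of let-7, with 9 miRNAs and 22.1% of the known counts over the 6 cows, that of bta-miR-26a with 2 miRNAs and 16.0%, and that of bta-miR-30a-5p with 6 miRNAs and 12.9%. The seed of bta-miR-99a-5p followed with 3 miRNAs and 6.01%. In single cows the seed of miR-148 ranked 3 or 4. The groups differed in how many miRNAs carried them, as bta-let-7b held 50.5% of the counts of its seed and bta-miR-148a 99.6%.

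**Figure D4:**
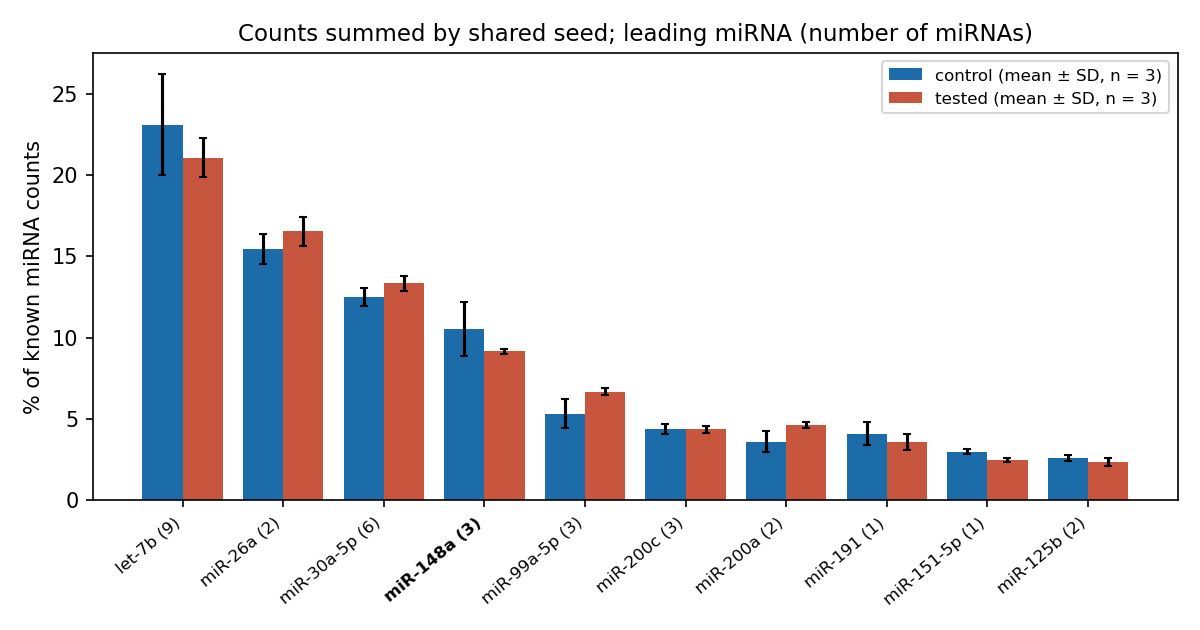
Percent of known miRNA counts held by the 10 most abundant seeds, each named after its leading miRNA with the number of miRNAs that share it in brackets (bars: mean, error bars: SD, 3 cows a group). The seed of miR-148 is at rank 4, with 10.5% among control cows and 9.17% among tested cows.

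The same 7 letters, CAGTGCA, were searched in the listed strand of all 706 sequences, at any position and in no other strand, since a mature miRNA is a single strand. They occurred in 9 of them (1.27%), and 6 of these were not family members. None of the 347 newly predicted miRNAs held them. Those that hold the letters nearest to the 5′ end are shown, because in both miR-130 sequences the letters of the miR-148 seed are shifted by only 1 base. The matching letters are in capitals.
bta-miR-130a: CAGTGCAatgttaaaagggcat
bta-miR-130b: CAGTGCAatgatgaaagggcat
bta-miR-139: tctaCAGTGCAcgtgtctccagt
bta-miR-130a was counted 37 times in tested cow 1 and in no other cow. bta-miR-130b was counted 41, 3 and 0 times among control cows and 26, 43 and 0 times among tested cows, and edgeR gave it a log2 fold change of 0.72 ± 2.24 (standard error) with an adjusted p of 0.979. bta-miR-139 carries the letters from position 5, so that they only partly overlap its seed, and had between 0 and 35 counts. The other three, bta-miR-106a, bta-miR-106b and bta-miR-17-5p of the miR-17 family, hold them from position 12. Of these, bta-miR-106b was the most abundant with 102 per 1000000 known counts on average, and edgeR gave it a log2 fold change of 0.31 ± 0.64 (standard error) with an adjusted p of 0.945. Of the 6, 5 entered the fit, and none of these had an unadjusted p below 0.05 by edgeR, DESeq2 or limma. Over the 6 libraries bta-miR-148a had 1054644 counts, whereas both miR-130 sequences together had 150. A match of letters is a description of the sequences and not a shared target.

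Spread between cows differed widely among the 3 members. It was measured as the SD of log2(CPM + 1) within groups, pooled over both groups. The value was 0.22 for bta-miR-148a, 0.35 for bta-miR-152 and 0.76 for bta-miR-148b. Over 126 known miRNAs with a mean of at least 100 counts a library the median was 0.35, and 41 of them had less spread than bta-miR-148a, 63 less than bta-miR-152 and 101 less than bta-miR-148b. Among the 5 known miRNAs within 2-fold of the level of bta-miR-148a, 4 varied less than it did, with a median of 0.17. Among the 37 known miRNAs within 2-fold of the level of bta-miR-148b, 25 varied less than it did. Among the 39 within 2-fold of bta-miR-152, 5 varied less. bta-miR-148b thus varied more than the median of its neighbours in level, 0.50, and bta-miR-152 less than that of its own, 0.62. For bta-miR-148b the SD was 0.55 among control cows and 0.92 among tested cows, where tested cow 3 lay farthest from its mean.

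**Figure D5:**
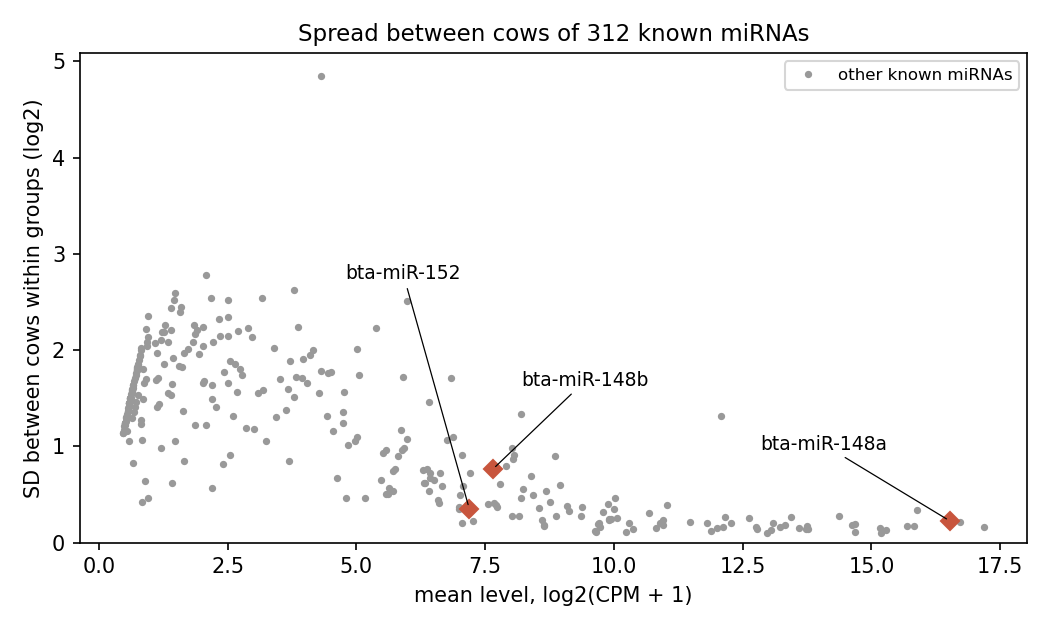
SD between cows within groups of log2(CPM + 1) (vertical axis) against mean log2(CPM + 1) (horizontal axis) for 312 known miRNAs, with the 3 members in red. bta-miR-148a is at 0.22, above 4 of the 5 miRNAs near its level, and bta-miR-148b at 0.76 lies above bta-miR-152 at 0.35.

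Likeness of pattern was measured over the 6 libraries as the root mean square difference of log2(CPM + 1), each miRNA centred on its own mean, among the same 126 known miRNAs. All these values share the 6 libraries and their scaling, and no test was made. Closest to bta-miR-148a were bta-let-7f at 0.10, bta-let-7d at 0.10 and bta-let-7g at 0.11, where the median over the 125 compared was 0.40. bta-miR-152 was at place 17 with 0.21 and bta-miR-148b at place 84 with 0.55. Closest to bta-miR-152 was bta-miR-148a, followed by bta-miR-30e-5p and bta-miR-182, both at 0.23. Closest to bta-miR-148b were bta-miR-193a-5p at 0.42, bta-miR-652 at 0.47 and bta-miR-151-3p at 0.49. Counted from bta-miR-148b, the same 0.55 put bta-miR-148a at place 10 of the 125 compared, where the median was 0.74. A place thus depended on the member it was counted from. Centred on its mean, bta-miR-148b was 0.92 above in control cow 3 and 1.31 below in tested cow 3 on the log2 scale, which were its farthest values.

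As a comparison, 21 other miRNAs that are often abundant in cow milk or its vesicles were listed from general knowledge, and 20 of them were found and tested, all with counts in every library. They held 68.9% to 72.6% of the known counts in the control cows and 68.6% to 73.4% in the tested cows. The list was chosen with earlier results of these data known, so its share is no test of an origin from milk. None of the 20 rose or fell at an adjusted p under 0.05 (edgeR), and none combined an unadjusted p under 0.05 with a change beyond 1 on the log2 scale. The unadjusted p of edgeR was under 0.05 for 3 of the 20 (15%, against 4.65% of the 623), named after their values were seen, bta-miR-92a with a log2 fold change of -0.47, bta-miR-99a-5p with 0.30 and bta-miR-141 with 0.37. DESeq2 and limma gave an unadjusted p under 0.05 to none of the 20. The groups did not overlap in share for 3 of the 20, bta-miR-99a-5p, bta-miR-141 and bta-miR-200a, against 8.01% of the known miRNAs tested. The median log2 fold change of the list was -0.10, with 12 of 20 negative. The 4 most abundant were bta-miR-26a (0.04), bta-let-7b (-0.15), bta-let-7a-5p (-0.35) and bta-miR-30a-5p (0.09), each with its log2 fold change in brackets.

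Marker lists for cells that could release such vesicles are given beside these values. The epithelial miRNAs, of which 7 of 8 were found, held 7.79% to 9.33% of the known counts in the control cows and 9.04% to 9.75% in the tested cows. All 3 liver miRNAs were found and held 0.107% to 0.159% and 0.113% to 0.202%, with bta-miR-122, the defining miRNA of hepatocytes, at 0.0307% on average. The red blood cell list held 1.35% to 2.84% and 0.862% to 5.96%. The white blood cell list, of which 4 of 5 were found, held 0.0196% to 0.0386% and 0.0124% to 0.0439%. None of the 17 listed miRNAs found had an adjusted p below 0.05 (edgeR), and 1, bta-miR-141, had an unadjusted p below 0.05, where 4.65% of all 623 miRNAs did, against 0 of the 17 by DESeq2 or limma. No marker found was at 0 in any library, and 5 of the 17 also stand in the milk list. The summed shares of the 2 groups overlapped for every list. Of single markers, bta-miR-141 and bta-miR-200a of the 7 epithelial ones were higher in each tested cow than in any control cow, and the other 15 markers overlapped, where 8.01% of the known miRNAs tested did not. Of the 7 epithelial miRNAs 4 had a positive and 3 a negative log2 fold change, the latter being bta-miR-375 (-0.41), bta-miR-205 (-0.22) and bta-miR-200c (-0.10). The part of any of these cells in the level of bta-miR-148a was not tested.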

How the data were processed

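Small RNAs of serum EVs were sequenced from 6 cows, 3 control and 3 tested. The authors trimmed reads, aligned them to cattle sequence, discarded other RNA classes, named known miRNAs by miRBase and predicted more with miRDeep2. The submitters' processing notes name cutadapt 1.14, Bowtie and ARS-UCD1.2. The counting tool is not given in the sources used here. The authors deposited raw counts (whole numbers) per miRNA and library. They also deposited values labelled TPM, which are RPM, reads scaled to 1000000 clean reads of the library. Columns with the authors' own comparison (base mean, fold change, errors, p-values) and their list of called miRNAs were not used.

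The counts were tested with edgeR 4.0.16 in R 4.3.3 (TMM, estimateDisp, glmQLFit, glmQLFTest) on 623 miRNAs with a summed count of at least 10. P-values were adjusted over all of them. The fit was also run on counts simulated from its own estimates, which cannot show whether its assumptions hold for these data. Alternatives were RLE factors or no factors, limma 3.58.1 on log2(CPM + 1), DESeq2 1.42.0, no filter, filterByExpr, known miRNAs only, nested sequences merged, a replicate block, and each cow left out. Shares were computed with pandas 2.3.3 and compared with SciPy 1.17.1. The family, the lists and the tests were chosen with earlier results of these data known. Named are the members, their neighbours in rank and pattern, the sequences with their seed letters, the leading seeds and the lists. Between 1277693 and 2176002 miRNA counts per library lay behind the values.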

Additional observations from a re-analysis of the deposited data

How the results depend on the processing

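The log2 fold changes of all 3 members stayed negative and their adjusted p stayed above 0.05 under each of the 15 alternatives. With all cows they ran from -0.34 to -0.21 for bta-miR-148a, from -0.57 to -0.42 for bta-miR-148b and from -0.25 to -0.13 for bta-miR-152. With one cow left out they ran from -0.39 to -0.10, from -0.87 to -0.07 and from -0.41 to -0.01. The smallest adjusted p over all alternatives was 0.426, 0.596 and 0.914. A share of clean reads, from the authors' RPM values, gave lower tested means, by -35.8% for bta-miR-148a (exact permutation test, p = 0.3), -46.6% for bta-miR-148b (p = 0.5) and -30.2% for bta-miR-152 (p = 0.3), in libraries where known miRNAs made up 8.50% to 18.0% of the clean reads. With one cow left out, the difference in share of known counts ran from -20.0% to -6.91%, from -43.7% to -5.13% and from -21.2% to 8.17%, and the one reversal, 8.17% for bta-miR-152, came without control cow 1.

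Of the 623 miRNAs, 20 combined an unadjusted p under 0.05 with a change beyond 1 on the log2 scale. This count was 13 with filterByExpr, 6 with known miRNAs only, where fewer miRNAs were tested, and 34 with limma, and ran from 17 to 23 with one cow left out. The count past an adjusted p of 0.05 was 1, and it was 0 with no factors, filterByExpr, known miRNAs only or limma, 2 without a filter, 7 with DESeq2 and from 0 to 4 with one cow left out. No member was in any of these counts. The causes were not tested.

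With the replicate number as a block, the counts were 12 and 3, and the log2 fold changes -0.25, -0.53 and -0.14. As pairs, the shares gave exact permutation p-values of 0.5, 1 and 0.75. The deviations of same-numbered cows correlated at -0.058, -0.048 and -0.019 across miRNAs, and the cows share only a number.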

Other observations

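The evenness of bta-miR-148a in the tested group was seen in the data and not set beforehand, and its size depended on the scaling. Its share of the known counts ran from 8.96% to 9.29% in the 3 tested cows and from 8.64% to 11.9% in the 3 control cows, and the SD of the control group was 9.94 times that of the tested group. On TMM-scaled CPM the SD of the control group was 2.98 times that of the tested group, and per clean read 1.31 times, where the tested cows ran from 7620 to 14489 per 1000000 clean reads. By share of the known counts, of the 126 known miRNAs with a mean of at least 100 counts a library, 62 had the larger SD in the control group, and 1, bta-miR-23a, had a higher ratio. For bta-miR-152 the ratio by share was 2.90, exceeded by 13 of the 126, with 3.41 on TMM-scaled CPM and 1.03 per clean read. For bta-miR-148b it was 0.891 by share, 1.08 on TMM-scaled CPM and 1.85 per clean read. No test was made of these ratios, each of which rests on 3 cows a group.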
